A study of Homo sapiens with 6 samples.

Results

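Expression of 9 genes of type I interferon signalling was followed in U251 cells after 24 h with or without 6-shogaol. They were the rows of the deposited FPKM table named IFNAR1, IFNAR2, JAK1, TYK2, STAT2, IRF9, IRF1, USP18 and SOCS1, and all 9 of 9 were found among 60612 genes. Of these 9, edgeR called 2 lower with 6-shogaol, where 1.71% of all genes tested were called lower. They were USP18, at 59.7% of the control level, and STAT2, at 77.4%. Leaving out any control library ended both calls. IRF9 had a log2 fold change of -1.0, or -0.40 with the counts of a gene that overlaps it added, and passed in neither case. The receptor genes IFNAR1 and IFNAR2 and the kinase genes JAK1 and TYK2 did not pass in either direction.

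Type I interferons bind a receptor of 2 chains, IFNAR1 and IFNAR2, whose bound kinases TYK2 and JAK1 then phosphorylate STAT proteins, STAT2 among them. Phosphorylated STAT2 and IRF9 are subunits of ISGF3, which binds the interferon-stimulated response element (ISRE) in the promoters of antiviral genes. STAT dimers without IRF9 bind a different element, the gamma-activated site (GAS), and IRF1 is a classical GAS target that itself activates transcription. USP18 and SOCS1 are induced by the pathway and restrain it, USP18 at the IFNAR2 chain and SOCS1 at the JAK kinases. Glioma cells in culture can hold a steady level of such transcripts without added interferon.

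U251 is an established human glioma line, labelled wild type. The 3 control libraries (dose 0) were compared with 3 libraries from cells given 6-shogaol, an unsaturated ketone from ginger, at a dose of 60 with the unit written "μm" in the labels. All 6 libraries were taken at 24 h, from cells of 1 line grown in DMEM with serum, and no label names an added interferon. Whether the replicates of a group were grown apart is not stated, and the p-values rest on the spread between libraries, part or all of which may be technical. In bulk RNA, fewer cells making a transcript and less of it per cell cannot be told apart.

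The libraries held 43516840 to 60018999 counts. On the second principal component, with 20.6% of the variance, 6-shogaol replicate 1 stood apart (-61.8, against -22.6 to 33.9 for the rest). Of the astrocytic markers, VIM, NES, SOX2 and CD44 were abundant, with VIM at 1126 ± 14.3 FPKM in controls, whereas GFAP was at 2.03 ± 0.419 FPKM and fell with treatment (log2 fold change -1.62, edgeR adjusted p = 0.00655). Of the 9 astrocytic markers, 3 fell (GFAP, FABP7 at -1.41 and NES at -0.42) and 0 rose. Over all genes tested, 1.71% were called lower and 1.67% higher. On the same scale, VIM was at 0.05, SLC1A3 at -0.12, S100B at -0.64 and AQP4 at -0.89, with overlap of the groups. For VIM, replicates 1, 2 and 3 stood at 7020, 6872 and 6932 CPM in controls and at 5602, 6247 and 9763 CPM with 6-shogaol. Its treated libraries thus lay on both sides of the controls. SOX2 (-0.33, edgeR adjusted p = 0.0646) and CD44 (0.25, edgeR adjusted p = 0.12) were without overlap. In all, 4 markers were lower and 1 higher without overlap (13.9% and 14% over all genes tested). Among 8 immune cell markers, CD3E and AIF1 had no counts and CD68 was the highest at up to 28.2 CPM. The summed FPKM of those 8 markers was 5.65 to 6.45 in controls and 7.37 to 11.9 with 6-shogaol, most of it CD68, a lysosomal gene also made by other cells. Of 3 endothelial markers, CDH5 fell from 2.35 ± 0.140 to 0.691 ± 0.145 CPM (SD, n = 3 each, log2 fold change -1.77, edgeR adjusted p = 0.0192), VWF held at most 33 counts in a library (-1.55, edgeR adjusted p = 0.428) and PECAM1 had 8 counts in control replicate 2 and 0 elsewhere. The summed endothelial FPKM was 0.348 to 0.376 in controls and 0.071 to 0.133 with 6-shogaol. The part of these markers in the results was not tested.

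The DNA elements of the pathway are shown first, to let the promoters of the 9 genes be read beside those of standard ISGF3 targets. Promoter sequences were taken from RefSeq (GRCh38.p14), from 250 bases before to 50 bases after each start site, and 7 of the 9 genes had one. The ISRE was searched as GAAA, any 2 bases and GAAA, and the GAS as TTC, any 3 bases and GAA. Both strands were searched, and matches of the ISRE and the GAS can share bases. Of 35116 promoter windows, 3.57% held the ISRE letters and 7.66% the GAS letters. Each sequence is written 5′ to 3′ on the strand of its gene, with matches in capitals. IFIT1 and ISG15, standard ISGF3 targets that are not among the 9 genes, are given as the pattern to compare with, SOCS1, IRF1 and IRF9 as the 3 of the 7 with a match, and STAT2 as the called gene for which a window was given. The windows are chr10:89392493-89392542 (plus strand) for IFIT1, chr1:1013367-1013416 (plus) for ISG15, chr16:11256285-11256334 (minus) for SOCS1, chr5:132490869-132490918 (minus) for IRF1, chr14:24161185-24161264 (plus) for IRF9 and chr12:56360108-56360187 (minus) for STAT2.
IFIT1, 2 ISRE matches: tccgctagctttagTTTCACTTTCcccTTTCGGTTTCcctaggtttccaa
ISG15, 2 overlapping ISRE matches: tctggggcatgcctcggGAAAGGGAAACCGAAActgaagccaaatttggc
SOCS1, 1 ISRE match: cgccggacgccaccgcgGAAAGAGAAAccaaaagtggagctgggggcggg
IRF1, 1 GAS match: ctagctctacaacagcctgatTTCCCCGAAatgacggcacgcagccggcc
IRF9, 1 GAS match: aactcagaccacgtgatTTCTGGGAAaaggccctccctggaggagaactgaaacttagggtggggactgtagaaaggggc
STAT2, no ISRE match: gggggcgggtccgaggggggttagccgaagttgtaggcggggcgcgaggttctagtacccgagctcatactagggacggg

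The SOCS1 match began 113 bases before the start site, the IRF1 match 124 bases and the IRF9 match 63 bases before it. The windows of IFNAR1, JAK1, TYK2 and STAT2 held neither pattern, which says only that these letters are not in those windows. Of 30 ISRE-type target genes with a promoter in the table, 23 (76.7%) held the ISRE letters and 10 (33.3%) the GAS letters. A gene was counted if any of its promoters matched, whereas the shares over all promoter windows are per window. Of 10 GAS and IRF1-type targets with a promoter there, 8 (80%) held the ISRE letters and 4 (40%) the GAS letters, so neither pattern marks 1 list alone.

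The receptor genes showed no change past the test. IFNAR1, the chain that binds TYK2 (ENSG00000142166, chromosome 21, 33324429 to 33355703), had control levels of 53.7, 71.9 and 39.2 CPM (replicates 1, 2 and 3, the order used throughout) and treated levels of 46.4, 64.9 and 46.0 CPM. All 3 treated values lay inside the control range. Its log2 fold change was -0.07 with a 95% interval from -0.62 to 0.49 (edgeR adjusted p = 0.913), and changes inside that interval could not be told from none.

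IFNAR2, the chain that JAK1 and USP18 bind (ENSG00000159110, chromosome 21, 33229901 to 33265664), was the most uneven of the 9 genes between controls. It stood at 25.9, 13.2 and 6.10 CPM in controls and at 11.2, 16.6 and 11.3 CPM with 6-shogaol. Control replicates 1 and 3 bracketed all treated libraries, and the log2 fold change was -0.21 (95% interval -1.31 to 0.90, edgeR adjusted p = 0.857). Without control replicate 1 it was 0.44. Other annotated genes with counts cover 83.2% of the IFNAR2 exon length in GENCODE 29. AP000295.1, which joins IFNAR2 to its neighbour IL10RB on the same strand, covers 44.2%. IL10RB-DT, on the opposite strand, covers 39.1%, and the strand used in counting is not given in the sources used here. IL10RB-DT held 90, 49 and 606 counts in controls and 17, 224 and 328 with 6-shogaol, and it is not in the sums below. AP000295.1 held 0, 167 and 626 counts in control replicates 1, 2 and 3, where IFNAR2 held 1339, 770 and 366. With the counts of both summed, the controls were at 25.9, 16.0 and 16.5 CPM and the treated libraries at 13.5, 18.6 and 12.9 CPM, a log2 fold change of -0.38 (edgeR adjusted p = 0.414). With IL10RB added as well it was -0.01 (95% interval -0.70 to 0.68, edgeR adjusted p = 0.988). IL10RB, the shared receptor chain of interleukin 10 and lambda interferon, was at 41.0, 24.8 and 18.1 CPM in controls and at 21.1, 43.7 and 31.5 CPM with 6-shogaol.

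The kinase genes were steadier. JAK1 (ENSG00000162434, chromosome 1, 64833229 to 65067732) stood at 162, 155 and 169 CPM in controls and at 169, 174 and 173 CPM with 6-shogaol. All treated libraries lay above all controls, the lowest treated library by less than 0.1 CPM, and the difference did not pass (log2 fold change 0.09, 95% interval -0.06 to 0.23, edgeR adjusted p = 0.495). TYK2, the kinase of the IFNAR1 chain (ENSG00000105397, chromosome 19, 10350529 to 10380572), stood at 128, 118 and 147 CPM in controls and at 139, 119 and 102 CPM with treatment. The groups overlapped, and the log2 fold change was -0.13 (95% interval -0.44 to 0.18, edgeR adjusted p = 0.652).

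**Figure D1:**
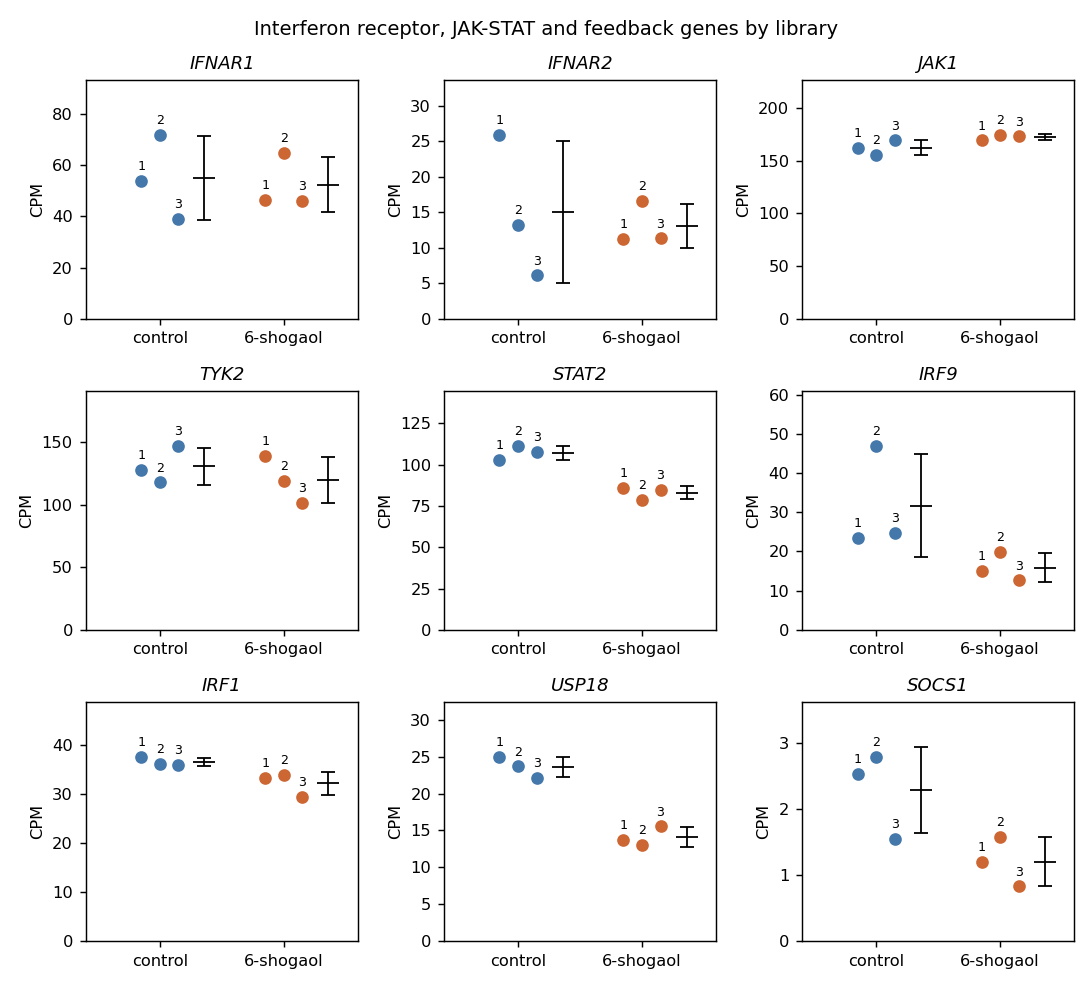
TMM-scaled CPM of the 9 genes in each library, with an axis from 0 in each panel. Numbered points are replicates and bars beside them are the mean and SD of 3 libraries. The STAT2, USP18, IRF9 and IRF1 points of 6-shogaol lie below those of the controls, and control replicate 2 stands high for IRF9.

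STAT2, the ISGF3 subunit that supplies the transactivation domain (ENSG00000170581, chromosome 12, 56341597 to 56360167), fell with 6-shogaol. It stood at 103, 111 and 108 CPM in controls and at 86.0, 78.7 and 84.5 CPM with treatment. The groups did not overlap, with means of 107 ± 4.2 and 83.1 ± 3.84 CPM (SD, n = 3 each). The log2 fold change was -0.37 (SE 0.07, edgeR adjusted p = 0.0397). Leaving out control replicate 1, 2 or 3, or 6-shogaol replicate 2 or 3, ended the call, at log2 fold changes between -0.40 and -0.33 (edgeR adjusted p from 0.111 to 0.156).

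IRF9, the DNA-binding subunit of ISGF3 (ENSG00000213928, chromosome 14, 24161265 to 24166565), had the most negative log2 fold change of the 9 genes but did not pass. It stood at 23.5, 46.9 and 24.7 CPM in controls and at 15.1, 19.9 and 12.6 CPM with 6-shogaol. All treated libraries lay below all controls, and control replicate 2 stood far above the other controls. The log2 fold change was -1.0 (SE 0.30, 95% interval -1.70 to -0.30, edgeR adjusted p = 0.122), whereas DESeq2 called it (-1.01, DESeq2 adjusted p = 0.00346). Without control replicate 2 it was -0.60 (edgeR adjusted p = 0.241).

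Almost 1 in 2 bases of the IRF9 exons (48.4%) also belong to AL136295.5, a gene on the same strand whose single transcript is annotated as a readthrough and which also covers exons of the upstream gene RNF31. This gene held more counts than IRF9 in all 6 libraries, with 4883, 3669 and 5689 in controls against 1215, 2743 and 1483 for IRF9. IRF9 took 19.9%, 42.8% and 20.7% of the counts of the pair in control replicates 1, 2 and 3 and 14.2%, 22.7% and 17.9% in the treated libraries. Control replicate 2 was the highest control for IRF9 and, at 62.8 CPM against 94.5 and 94.8, the lowest control for AL136295.5. Why it differed was not tested.

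With the counts of both genes summed, the controls came to 118, 110 and 120 CPM and the treated libraries to 106, 87.5 and 70.4 CPM. Control replicate 2 did not stand apart in the sum. The log2 fold change of the sum was -0.40 (SE 0.14, 95% interval -0.73 to -0.06, edgeR adjusted p = 0.181). With RNF31 added as well it was -0.42 (SE 0.10, edgeR adjusted p = 0.077), from 135 ± 2.45 to 101 ± 13.7 CPM (SD, n = 3 each). Both sums were chosen after the data were seen. RNF31 itself encodes a ubiquitin ligase of the linear ubiquitin complex and was at 14.3, 25.2 and 17.6 CPM in controls and 9.22, 12 and 17.6 CPM with 6-shogaol.

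**Figure D2:**
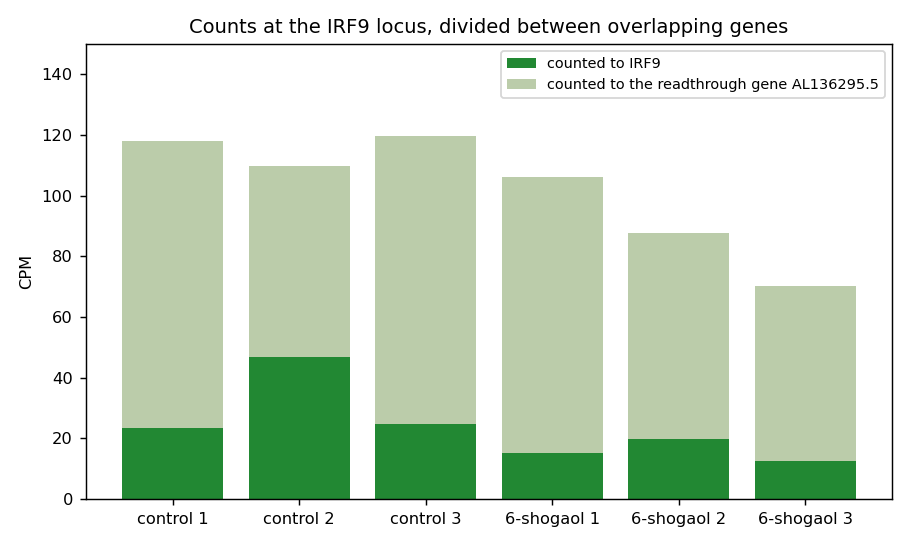
TMM-scaled CPM counted to IRF9 (dark) and to the overlapping readthrough gene AL136295.5 (light), stacked, for each of the 6 libraries. The dark part varies from 12.6 to 46.9 CPM and is highest in control replicate 2, while the summed height of that library, 110 CPM, is close to the other controls at 118 and 120 CPM.

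IRF1, the GAS target (ENSG00000125347, chromosome 5, 132481609 to 132490773), stood at 37.6, 36.2 and 35.9 CPM in controls and at 33.3, 33.9 and 29.4 CPM with 6-shogaol. The groups did not overlap, but the difference was small and did not pass (log2 fold change -0.18, 95% interval -0.38 to 0.01, edgeR adjusted p = 0.276). Opposite-strand genes with counts cover 22.0% of the IRF1 exon length, and the strand used in counting is not given in the sources used here. IRF1-AS1, the antisense gene, was at 6.98, 8.98 and 8.72 CPM in controls and 5.51, 5.92 and 6.25 CPM with 6-shogaol.

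USP18, the feedback inhibitor that displaces JAK1 from IFNAR2 and removes ISG15 from proteins (ENSG00000184979, chromosome 22, 18150170 to 18177397), gave the smallest adjusted p of the 9 genes. It stood at 24.9, 23.7 and 22.2 CPM in controls and at 13.7, 13.0 and 15.5 CPM with 6-shogaol. The highest treated library lay well below the lowest control, with means of 23.6 ± 1.39 and 14.1 ± 1.31 CPM (SD, n = 3 each). The log2 fold change was -0.74 (SE 0.11, edgeR adjusted p = 0.0184). Leaving out control replicate 1, 2 or 3, or 6-shogaol replicate 2, ended the call (log2 fold change from -0.79 to -0.69, edgeR adjusted p from 0.0609 to 0.0891). USP41, a near-identical copy on the same chromosome, held at most 92 counts in a library against 651 to 1384 for USP18. Relative to STAT2 in the same library, USP18 FPKM was 0.809, 0.710 and 0.688 in controls and 0.533, 0.550 and 0.613 with 6-shogaol, without overlap (two-sided exact permutation test, p = 0.1, the smallest possible, and 0.3 adjusted over 3 ratios). The other ratios overlapped: IRF9 to STAT2 was 0.394, 0.728 and 0.397 in controls and 0.302, 0.435 and 0.255 with 6-shogaol (exact permutation p = 0.3, adjusted 0.45). IFNAR2 to IFNAR1 was 0.718, 0.272 and 0.232 in controls and 0.359, 0.380 and 0.365 with 6-shogaol (exact permutation p = 1.0, adjusted 1.0).

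SOCS1, the JAK inhibitor with the ISRE match shown above (ENSG00000185338, chromosome 16, 11254408 to 11256204), was the least abundant of the 9 genes. It held 131, 163 and 93 counts in controls and 68, 79 and 36 with 6-shogaol, which is 2.53, 2.79 and 1.55 CPM against 1.20, 1.58 and 0.83 CPM. Control replicate 3 fell within the treated range, and the difference did not pass (log2 fold change -0.93, 95% interval -1.72 to -0.13, edgeR adjusted p = 0.186).

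Over the 9 genes, all tested, edgeR called 2 lower, where 1.71% of 19279 tested genes were called lower, and 0 higher, where 1.67% were called higher (3.38% in either direction). At unadjusted p under 0.05 there were 4 lower (9.95% of tested genes) and 0 higher (10.4%). DESeq2 called 3 lower, IRF9 being the third (5.13% of the genes it tested), and 0 higher. Groups did not overlap for 4 lower genes, STAT2, IRF9, IRF1 and USP18 (13.9% of tested genes), and for 1 higher gene, JAK1 (14% of tested genes). The median log2 fold change of the 9 was -0.21 beside 0.00 over all genes tested. Of the 9 values 8 were negative, beside 9640 of 19279 over all genes tested. The signs of IFNAR1 and IFNAR2 turned in some of the alternative fits.

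**Figure D3:**
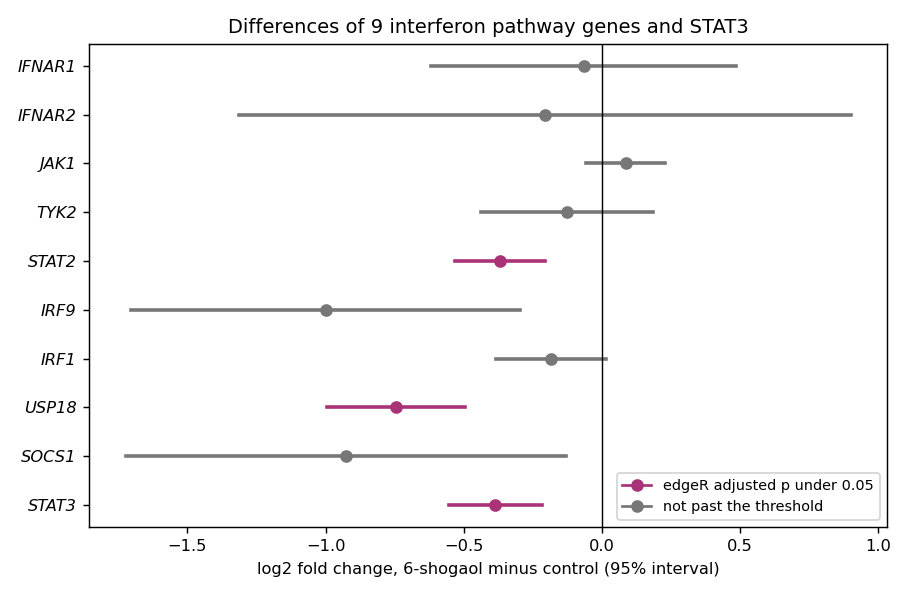
Log2 fold change (6-shogaol minus control) of the 9 genes and of STAT3, with 95% intervals from edgeR's quasi-likelihood fit. STAT2, USP18 and STAT3 passed (coloured), and the interval of IFNAR2, from -1.31 to 0.90, is the widest.

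Calls over all genes also dropped, from 329 lower to between 54 and 96, in the fits without a control, without 6-shogaol replicate 2 and without 6-shogaol replicate 3, and came to 532 without 6-shogaol replicate 1. The fold changes themselves moved little for STAT2 (-0.40 to -0.33) and USP18 (-0.82 to -0.69) over the 6 fits without 1 library. They moved more for IRF9 (-1.20 to -0.60), SOCS1 (-1.17 to -0.72) and IFNAR2 (-0.58 to 0.44).

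**Figure D4:**
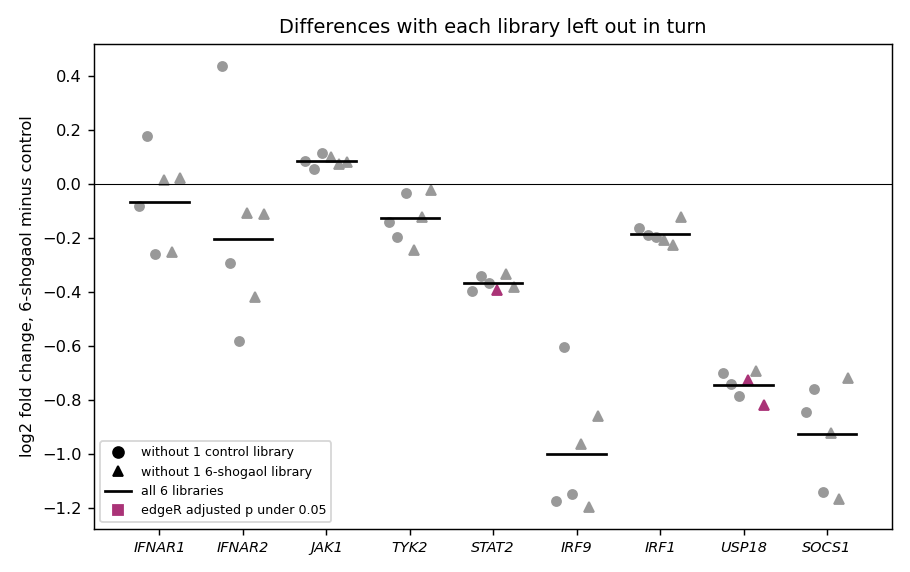
Log2 fold change of each of the 9 genes in fits that leave out 1 control library (circles) or 1 6-shogaol library (triangles), with the value from all 6 libraries as a line. Coloured points passed edgeR's test. STAT2 and USP18 stay in narrow bands, while IFNAR2 runs from -0.58 to 0.44.

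On the length-normalised FPKM scale, the control levels ran in the order TYK2 (16.5 ± 2.0), STAT2 (14.5 ± 0.581), JAK1 (10.8 ± 0.526), USP18 (10.7 ± 0.556), IRF9 (7.40 ± 3.05), IFNAR1 (6.69 ± 1.96), IRF1 (3.94 ± 0.0802), IFNAR2 (2.73 ± 1.81) and SOCS1 (1.06 ± 0.299; SD, n = 3 each). Neighbours in this order overlapped between libraries except STAT2 with JAK1 and IFNAR1 with IRF1. With 6-shogaol, USP18 stood at 6.46 ± 0.626 FPKM, next to IFNAR1 at 6.48 ± 1.24 FPKM. IRF9 stood below STAT2 in both groups, at 7.40 ± 3.05 and 3.74 ± 0.840 FPKM, a level that does not include the reads counted to AL136295.5.

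The genes around the 9 were described from lists. Of 21 interferon ligand genes 12 had no count in any library, which allows at most 0.05 to 0.0689 CPM (3 counts, counting error only). That bound leaves out any reads that match more than 1 gene, as the way they were counted is not given in the sources used here. A further 8 held at most 8 counts in a library, among them IFNB1, the gene of the main fibroblast interferon, with 4 counts in control replicate 3, 4 in 6-shogaol replicate 2 and 0 elsewhere. IFNE, an epithelial type I interferon, was the single ligand tested, with 16 to 30 counts (log2 fold change 0.29, edgeR adjusted p = 0.758).

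Of 8 receptor genes for related cytokines edgeR called 0 (3.38% over all genes tested). DESeq2 called 1 higher, where it called 764 higher of the 15412 genes it tested. At unadjusted p under 0.05 in edgeR there were 0 lower and 3 higher (9.95% and 10.4% over all genes tested). OSMR, the oncostatin M receptor, was at 18.9 ± 0.370 FPKM in controls and 19.7 ± 0.990 with 6-shogaol (log2 fold change 0.04). IL6ST, the shared gp130 chain, had a log2 fold change of 0.42 (edgeR adjusted p = 0.244). Of 7 other JAK and STAT genes 6 were tested and 1 fell (background 1.71% lower), STAT3, the factor activated through gp130. STAT3 stood at 281, 288 and 283 CPM in controls and at 236, 203 and 213 CPM with 6-shogaol (log2 fold change -0.39, edgeR adjusted p = 0.0383). Leaving out control replicate 1, 2 or 3, or 6-shogaol replicate 2 or 3, ended its call (edgeR adjusted p from 0.113 to 0.149). STAT5B, a STAT activated by growth hormone and cytokine receptors, had a log2 fold change of 0.05 (95% interval -0.24 to 0.34, edgeR adjusted p = 0.861).

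Of 7 tested genes named for other IRFs or IRF2-binding proteins edgeR called 0 (3.38% over all genes tested). At unadjusted p under 0.05 there were 0 (9.95% lower and 10.4% higher over all genes tested). DESeq2 called 0 (5.13% lower of the genes it tested). In a list of 7 genes, counts of 0 lie near these shares. The most abundant were IRF2BPL (28.2 ± 1.34 FPKM in controls, log2 fold change -0.04) and IRF2BP2 (23.6 ± 0.587 FPKM, 0.08). Of 14 tested negative regulators other than USP18 and SOCS1 edgeR called 0 and DESeq2 called 0, again near the shares over all genes. At unadjusted p under 0.05 in edgeR there were 1 lower and 3 higher (9.95% and 10.4% over all genes tested). PTPN11, the phosphatase SHP2, had a log2 fold change of 0.23 (edgeR adjusted p = 0.145) and PTPN1, the phosphatase PTP1B, of -0.21 (edgeR adjusted p = 0.126).

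Downstream, 29 of 35 tested ISRE-type targets fell and 0 rose, with a median log2 fold change of -1.0 (background 1.71% lower). RSAD2, the antiviral enzyme viperin, fell from 7.73 ± 1.38 to 1.96 ± 0.469 CPM (SD, n = 3 each, log2 fold change -1.98, edgeR adjusted p = 0.0102). CMPK2, a mitochondrial nucleotide kinase next to RSAD2, had a log2 fold change of -1.92, and IFIT1 and MX2 of -1.88 and -1.85. The most abundant members, BST2, which tethers virions, and IFI6, fell by 0.67 and 0.93 on the log2 scale. The called members numbered 16, 14 and 16 without control replicates 1, 2 and 3. RSAD2 and IFIT1 passed in all 6 fits without 1 library, and CMPK2, MX2, BST2 and IFI6 in 2 each, of which none was a fit without a control. All 35 values of these targets were negative, between -1.98 and -0.25.

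Of 14 tested GAS and IRF1-type targets 7 fell and 0 rose (1.71% and 1.67% over all genes tested), with a median of -0.59. GBP1 and GBP2, interferon-induced GTPases, fell by 1.14 and 0.90 on the log2 scale, and PSMB9 and TAP1, which serve antigen processing, by 0.89 and 0.84. PSMB9 and TAP1 lie on opposite strands over the same stretch of chromosome 6. GBP2 stood at 115, 116 and 115 CPM in controls and at 63.9, 60.8 and 61.5 CPM with 6-shogaol, and it passed in all 6 fits without 1 library. APOL2 fell by 0.49, and WARS (WARS1 in the deposited table), the tryptophanyl-tRNA synthetase, had a value of 0.20 (edgeR adjusted p = 0.263). The called members numbered 1, 1 and 2 without control replicates 1, 2 and 3 and 3 without 6-shogaol replicate 2 or 3. PSMB9 was called in 1, TAP1 in 3, GBP1 in 4 and APOL2 in 1 of the 6 fits without 1 library.

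**Figure D5:**
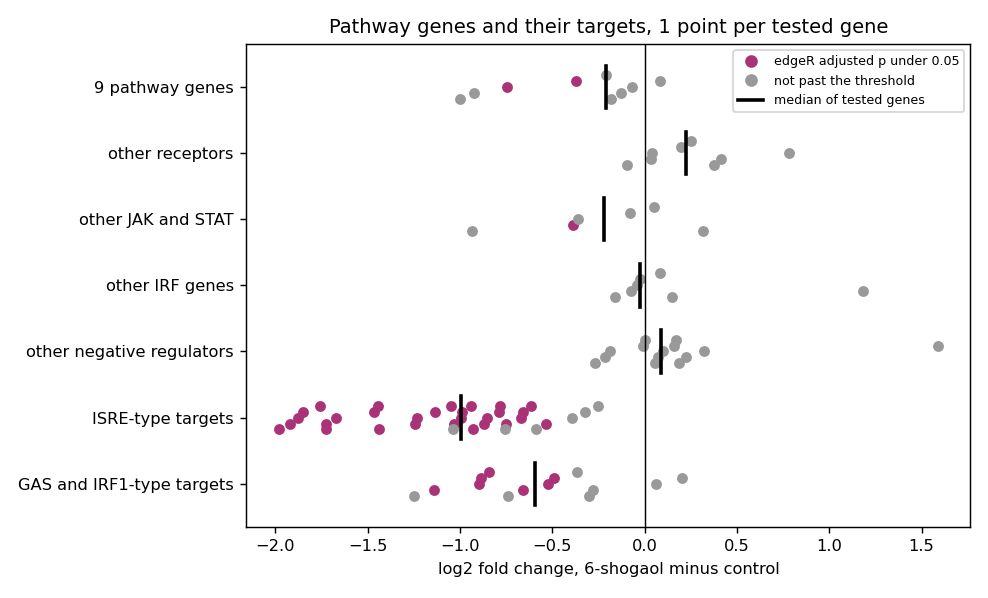
Log2 fold change (6-shogaol minus control) of each tested gene in 7 lists, 1 point per gene, with list medians as vertical bars and genes past edgeR's threshold coloured. The ISRE-type targets lie between -1.98 and -0.25 around a median of -1.0, to the left of the 9 pathway genes at -0.21.

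Across the 6 libraries, the log2 CPM of USP18 and STAT2 ran closely with that of the ISRE-type targets. Among 31 such targets with a mean of at least 5 CPM, the median Pearson's r was 0.98 with USP18, 0.96 with STAT2 and 0.69 with IRF9. Over all 11721 genes at that level the medians were -0.03, -0.03 and -0.01. The 6 points share the treatment contrast, so these values describe the same difference between groups. For IRF9 they rest on the counts given to IRF9 alone, 14.2% to 42.8% of those of the pair with AL136295.5. The summed counts were not used for r. The genes most like STAT2 over the 6 libraries were COX16 (r = 0.998), AASDHPPT (0.996) and MINAR1 (0.995), among 262 genes above 0.95. Among those most like IRF9 were ATPAF2 (r = 0.99) and ARHGAP19 (0.985), of 25 above 0.95. None of these 5 genes belongs to the lists above.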

How the data were processed

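RNA sequencing was done by the study on 3 control and 3 treated libraries; groups and replicate numbers come from the sample titles. The authors deposited raw counts per gene and FPKM values for the same 60612 human Ensembl genes, per the file headers; the 2 copies of the counts differed at 0 values. The builds GRCm38 and mm10, both mouse, are named per the submitters' processing notes; aligner, counter and strand are not given in the sources used here. Gene coordinates are those of the deposited table, where 9 of 9 members overlap the same gene in GENCODE 29 (GRCh38). Of these, 0 have the same start and end in both. The exon overlaps above rest on GENCODE 29, not on the deposited coordinates. Trizol was used for RNA and a SMARTER kit for the libraries, per the labels' protocols.

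Counts went into edgeR 4.0.16 under R 4.3.3 (filterByExpr, TMM, glmQLFit, glmQLFTest, Benjamini-Hochberg over all 19279 genes tested, threshold 0.05), after a check on simulated data. SE was taken from the F statistic, as |log2 fold change| over its root; 95% intervals use the fit's degrees of freedom. Alternatives used DESeq2 1.42.0, limma 3.58.1 on log2(FPKM + 1) or log2(FPKM + 0.1), other scalings and filters, robust moderation, a replicate block and each library left out. Replicates were not copies (chi-square over degrees of freedom between 32.8 and 69.1). The members and lists were chosen with earlier results of these data known. Named were all members and, per list, up to 4 called genes with the largest change and the 2 most abundant by FPKM, plus the 3 genes most correlated with STAT2 and with IRF9 at a mean of at least 5 CPM. Neighbours counted in exon overlap had a mean of at least 10 counts. Some genes that the rule or the lists would name are not reported here, and counts of the JAK and STAT list are without them.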

Additional observations from a re-analysis of the deposited data

How the results depend on the processing

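Under RLE and upper-quartile scaling, robust moderation and the filter of 1 CPM in 3 libraries, the 2 calls among the 9 genes were kept (STAT2 and USP18 called in each). With no filter on low counts and in limma on log2(FPKM + 1) with no filter, 1 of the 9 was called lower (USP18). Over all genes, the numbers called lower and higher were 790 and 764 in DESeq2, 195 and 183 with no filter, 118 and 159 in limma with no filter, and 54 to 532 lower and 44 to 480 higher in the fits without 1 library, the highest being those without 6-shogaol replicate 1. In those fits the members called lower numbered 0 to 2, other JAK and STAT genes 0 to 1, ISRE-type targets 14 to 24, GAS and IRF1-type targets 1 to 7, and related receptors 0 to 1 higher (1 without 6-shogaol replicate 1). DESeq2 also called 1 related receptor higher. Other JAK and STAT genes called lower numbered 0 with no filter, 0 in limma on log2(FPKM + 1) or log2(FPKM + 0.1), and 0 in limma with no filter, where ISRE-type targets numbered 17 and GAS and IRF1-type targets 2. The cause of these differences was not tested.

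With the replicate number as a block, 0 members, 0 other JAK and STAT genes, 0 ISRE-type and 0 GAS and IRF1-type targets were called, against 0 lower and 3 higher over all genes. The log2 fold changes of STAT2 (-0.37), USP18 (-0.75) and STAT3 (-0.39) hardly moved, whereas that of IFNAR2 went from -0.21 to 0.01. Deviations of same-numbered libraries from their group means correlated little (r = -0.03, 0.06 and -0.04 for numbers 1, 2 and 3), so the number is not shown to pair them.

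Signs turned for uncalled genes: IFNAR1 was between -0.26 and 0.18 and IFNAR2 between -0.58 and 0.44 in the fits without 1 library, IFNAR2 was 0.01 with the block and 0.013 in limma on log2(FPKM + 0.1), OSMR was between -0.012 and 0.089, IRF2BPL between -0.14 and 0.015 and STAT5B between -0.053 and 0.151. SOCS1 could not be fitted in limma with the FPKM filter. Counts were low for SOCS1 (36 to 163 in a library) and for the ligands, and the part of depth in their spread was not tested.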

Other observations

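Single genes of the receptor and negative regulator lists, counted above but not named there, are given here; they were chosen after their values were seen. SOCS7, a member of the SOCS family, stood at 13.5, 13.9 and 15.1 CPM in controls and at 18.6, 15.4 and 93.9 CPM with 6-shogaol, with the high value in 6-shogaol replicate 3 alone (log2 fold change 1.59, edgeR adjusted p = 0.24). IFNGR1, the ligand-binding chain of the interferon gamma receptor, stood at 30.0 ± 0.742 CPM in controls and 38.9 ± 4.2 CPM with 6-shogaol, without overlap (log2 fold change 0.38, edgeR adjusted p = 0.0881). SOCS3, a feedback target of STAT3, stood at 16.0 ± 0.912 CPM in controls and 18.1 ± 1.17 CPM with 6-shogaol (log2 fold change 0.19, edgeR adjusted p = 0.351), beside the fall of STAT3 itself.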
